A study of Mus musculus with 12 samples.

Results

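A set of 10 marker genes of macrophages and other leukocytes was followed across a reprogramming series of mouse cells: Ptprc, Csf1r, Adgre1, Cd14, Tyrobp, Fcer1g, Laptm5, Cd68, Lyz2 and Aif1. They were chosen by name among the gene probes of the array, through the deposited symbol or the current symbol of the accession (Adgre1 is also Emr1, Lyz2 also Lyzs). All 10 were found, among 25429 genes with a probe well above background on at least 1 array. They were read by 20 of the 41174 gene probes, each 60 bases long, and 7 of the 10 had several probes. The question asked was whether the fibroblast culture or the spheres carried the signal of blood cells.

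RNA of 12 samples was hybridised to 1 one-colour (Cy3) Agilent array each, on 3 slides. Slide 1 held MEF, ES and both Bmi1-Oct4 lines. Slide 2 held the Shh-Oct4 line, both oxysterol-Oct4 lines from embryo fibroblasts and purmorphamine-Oct4 line 2. Slide 3 held purmorphamine-Oct4 line 1, both tail-tip lines and the Bmi1 spheres. One array held mouse embryonic fibroblasts (MEF), the cell type from which most lines were made, with no strain or passage given. Another held embryonic stem (ES) cells from 129/Ola mice. One more array held neural stem cell-like spheres made from embryo fibroblasts transduced with Bmi1 (Bmi1 spheres). The other 9 held induced pluripotent stem (iPS) lines, all given Oct4: 2 made from embryo fibroblasts with Bmi1 and Oct4, 1 with Shh and Oct4, 2 with oxysterol and Oct4 and 2 with purmorphamine and Oct4, and 2 from tail-tip fibroblasts of adult mice, treated with oxysterol and given Oct4. No replicate array was analysed here for MEF, for ES, for the sphere sample or for Shh-Oct4, the labels do not say that the lines came from separate cultures, and p-values measure only the spread between these samples. Between 58.4% and 80.0% of gene spots lay well above background, lowest on the Shh-Oct4 array and highest on the sphere array. Levels are log2 processed signals minus the 75th percentile of the same array, so 0 is that percentile. The number of arrays limits the precision.

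The markers cover the layers of a macrophage. Ptprc (CD45) is the tyrosine phosphatase that nearly all nucleated blood cells carry on their surface, Csf1r is the receptor through which Csf1 and Il34 keep macrophages alive, Adgre1 is the surface protein F4/80, and Cd14 hands bacterial lipopolysaccharide to Tlr4. Tyrobp (DAP12) and Fcer1g are small adaptors whose ITAM motifs pass signals from myeloid receptors to the kinase Syk. Laptm5 and Cd68 are proteins of lysosomes and late endosomes, Lyz2 is the lysozyme of myeloid cells, and Aif1 (Iba1) is a calcium-binding protein of the macrophage cytoskeleton. Macrophages live in most embryonic tissues, and fibroblast cultures are made by dissociating such tissue.

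For several markers the probes of 1 gene gave different patterns, so the probes on which the values turn are shown first. Positions follow the array design (mm7), with sequences as deposited, 5′ to 3′, and no gene annotation of that build was used here to place them in exons or untranslated regions. Of the Lyz2 probes, the first lies on chromosome 10 at 116785279 to 116785338 and the second at 116790004 to 116790063, both on the minus strand and 4725 bases apart. Of the Adgre1 probes, on the plus strand of chromosome 17, the first lies at 55686649 to 55686708 and the second at 55613754 to 55613813. Of the Ptprc probes, on the minus strand of chromosome 1, the first lies at 137950290 to 137950349 and the second at 137952892 to 137952951. The Tyrobp probe spans 27358831 to 27360558 on the plus strand of chromosome 7, a stretch of 1728 bases for its 60. The Fcer1g probes, on the minus strand of chromosome 1, lie at 171199756 to 171199815 and at 171199808 to 171199880 and share 8 bases, set in capitals. The second Lyz2, Adgre1 and Ptprc probes and the Tyrobp probe are given whole and the others by 30 of their bases.
Lyz2, probe A_52_P238027, first 30 bases: cttaagttccttcattcacactaactctga
Lyz2, probe A_51_P321150: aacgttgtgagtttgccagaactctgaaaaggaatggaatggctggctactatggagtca
Adgre1, probe A_51_P251768, first 30 bases: ttgtgtttcctatgcactttcttgtggtgt
Adgre1, probe A_52_P364727: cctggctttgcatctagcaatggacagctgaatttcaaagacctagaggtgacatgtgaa
Ptprc, probe A_52_P677117, first 30 bases: ttatgggaaatgtaaaattgactatggcca
Ptprc, probe A_52_P239834: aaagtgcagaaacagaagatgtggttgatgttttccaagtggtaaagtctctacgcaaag
Tyrobp, probe A_51_P261517: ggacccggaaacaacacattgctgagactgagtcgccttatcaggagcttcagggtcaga
Fcer1g, probe A_51_P405478, last 30 bases: ctctacatcagtgtacactggcAGGTCCCC
Fcer1g, probe A_51_P405476, first 30 bases: AGGTCCCCatctccgttaaagacttactca

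On 6 of the 20 marker probes, for Ptprc, Csf1r, Adgre1, Tyrobp, Fcer1g and Lyz2, MEF had the highest signal of the 12 arrays. The spheres had the highest signal on 4 probes, for Ptprc (2 probes), Lyz2 and Aif1, and ES on 0. Over the 37392 gene probes with a value on all 12 arrays, the shares were 14.6% for MEF, 16.3% for the spheres and 6.64% for ES. With each gene read by its probe of highest mean signal, as in the comparisons across genes, MEF was highest for 3 of the 10 (Adgre1, Tyrobp and Fcer1g) and the spheres for 2 (Ptprc and Lyz2), against 14.4% and 16.5% of all genes, and ES for 0 against 6.61%. For Ptprc, Csf1r and Lyz2 the probe of highest mean signal was a dim probe with nearly even levels on all arrays, so single probes are given beside it for the lines against MEF, and the probe of highest signal on any array for the counts against MEF and between single arrays. Read by the probe of highest mean signal, 9 of the 10 genes were well above background in MEF, 10 in the spheres and 5 in ES. The lines had between 5 and 10. On the probe of highest signal on any array, Ptprc, Csf1r and Lyz2 were well above background in MEF and not in the spheres. MEF itself gave the highest signal on those probes, so that choice favoured detection in MEF. On their probes of highest mean signal these genes were well above background in the spheres, and Ptprc was not in MEF. These detection counts also follow the arrays' sensitivity: the lowest signal that counted as well above background, the floor of an array, ran from -7.25 to -4.18.

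**Figure D1:**
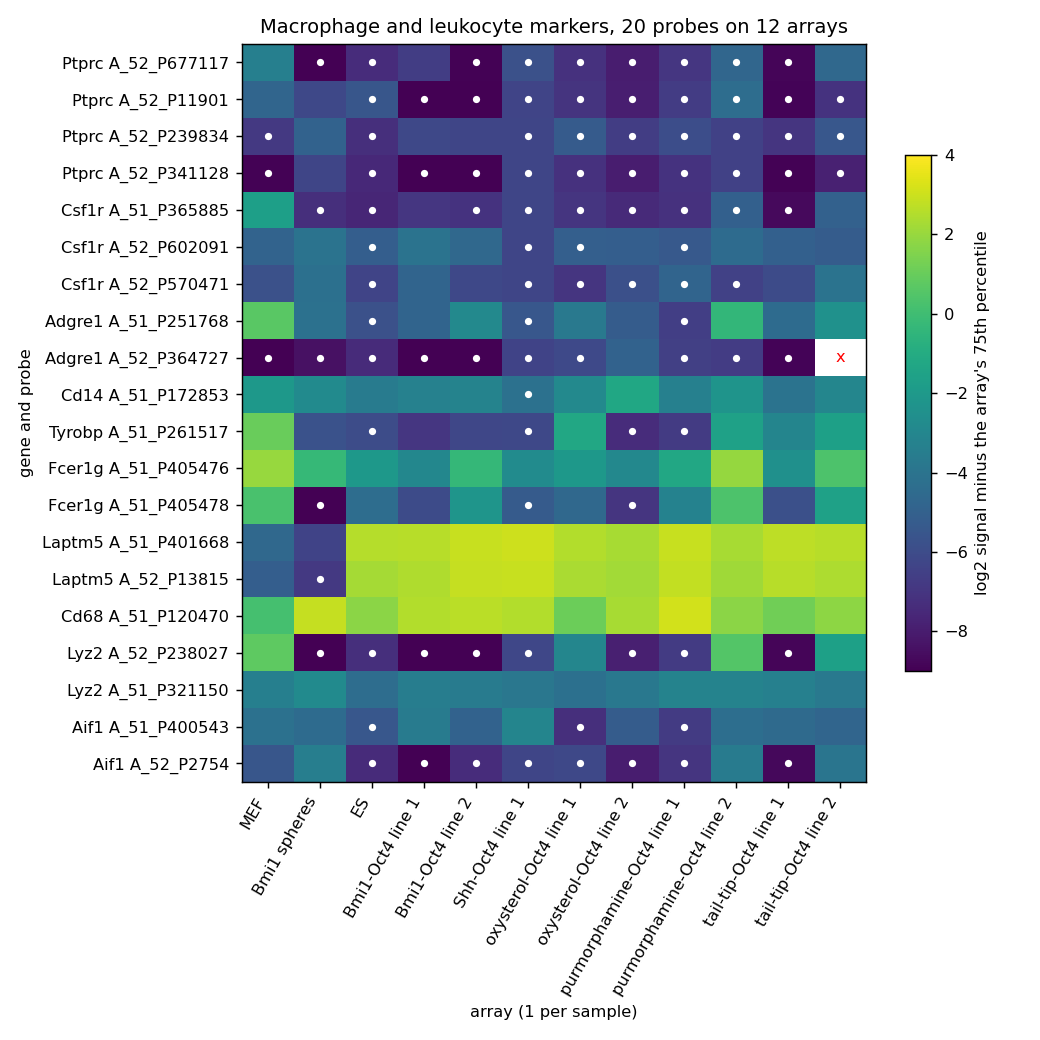
Levels of the 20 marker probes (rows, by gene) on the 12 arrays (columns), as log2 signal minus the array's 75th percentile. A white dot marks a signal not well above background and a red x a spot left out as an outlier. MEF, purmorphamine-Oct4 line 2 and tail-tip line 2 are brighter than most other arrays on the first Adgre1 probe, on the Tyrobp and Fcer1g probes and on the first Lyz2 probe, while both Laptm5 probes are dark only in MEF and the spheres.

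Among the surface receptors, Adgre1 (F4/80) was bright in MEF. On its first probe the level was 0.66 in MEF, -4.13 in the spheres and -5.79, not well above background, in ES. Over the 9 lines it ran from -6.57 (purmorphamine-Oct4 line 1) through a median of -4.44 to -0.39 (purmorphamine-Oct4 line 2), and 7 lines were above background. Every line lay below MEF. Tail-tip line 2 (-2.43) and Bmi1-Oct4 line 2 (-2.89) came next after purmorphamine-Oct4 line 2. The mean of the lines minus MEF was -4.66 log2 units (SE 1.76, 95% interval -8.57 to -0.74), which did not pass limma with Benjamini-Hochberg adjustment over all genes (adjusted p = 0.121). Against single arrays, which carry no test, Adgre1 was 27.7-fold lower in the spheres than in MEF and at least 64.9-fold lower in ES. A bound of this kind sets each dim signal at the floor of its array, or at its own value where that is higher. The second Adgre1 probe was well above background on 2 arrays, oxysterol-Oct4 line 2 (-4.93) and tail-tip line 2, whose spot was left out as an outlier, and read -9.09, not well above background, in MEF.

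Csf1r, the growth factor receptor of macrophages, depended on the probe. Its probe A_51_P365885 read -1.69 in MEF, -7.25 in the spheres and -7.58 in ES, both of the last not well above background. In the lines it ran from -8.67 (tail-tip line 1) through a median of -6.98 to -4.97 (tail-tip line 2), with 2 lines above background. MEF lay above all 11 other arrays. In a fit of single probes the lines minus MEF gave -5.04 (SE 1.13, 95% interval -7.56 to -2.52) and the probe was called lower (limma, adjusted p = 0.0217, n = 9 lines against 1 array), where 6.61% of all probes were called higher and 2.6% lower. In single arrays it was at least 36.8-fold lower in the spheres than in MEF and at least 12.7-fold lower in ES. The other Csf1r probes did not follow. Probe A_52_P602091, the one of highest mean signal, read -4.87 in MEF, -4.07 in the spheres and -5.13 in ES, and its difference between lines and MEF was -0.14 (SE 0.663, adjusted p = 0.909), or 0.09 with normexp background correction. Probe A_52_P570471 gave 0.05 (adjusted p = 0.976).

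Ptprc (CD45), the marker of leukocytes in general, was dim on all 4 of its probes. On A_52_P677117 MEF read -3.36 and tail-tip line 2 -4.62, and 9 of the 9 lines lay below MEF. The spheres (-8.98) and ES (-7.37) were not well above background. This probe is spotted 10 times on each array, and over the 9 MEF spots that were no outliers the log2 signal had an SD of 0.0818; spots of 1 array share its RNA, and their spread is technical. In raw processed signal its median over all 10 spots was 176 intensity units in MEF and 3.54 in the spheres. The lines minus MEF gave -3.47 on this probe (SE 1.52, adjusted p = 0.181 with limma). Probe A_52_P11901 was well above background only in MEF (-4.76) and the spheres (-6.18). Probe A_52_P239834, the one of highest mean signal, was above background in the spheres (-4.91) and in both Bmi1-Oct4 lines, and was not well above background in MEF (-6.86). Its difference between lines and MEF was 0.70 (SE 0.592, adjusted p = 0.464 with limma) and turned to -0.15 under quantile normalisation. The last Ptprc probe was above background in the spheres alone (-6.27).

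Cd14, the lipopolysaccharide co-receptor, differed less between arrays. It read -2.09 in MEF, -2.77 in the spheres and -3.60 in ES. The lines ran from -4.14 (Shh-Oct4) through a median of -3.20 to -1.27 (oxysterol-Oct4 line 2), so that 1 line exceeded MEF and 8 lay below it. The lines differed from MEF by -0.97 (SE 0.874, 95% interval -2.91 to 0.97, adjusted p = 0.490 with limma). The groups overlapped, and no difference in Cd14 passed the test.

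The 2 ITAM adaptors had their highest level in MEF, except on the second Fcer1g probe. Tyrobp read 1.01 in MEF, -5.70 in the spheres and -6.0, not well above background, in ES. In the lines it ran from -7.36 (oxysterol-Oct4 line 2) through a median of -6.19 to -1.20 (oxysterol-Oct4 line 1). The lines fell into a high set and a low set: oxysterol-Oct4 line 1 (-1.20), purmorphamine-Oct4 line 2 (-1.54), tail-tip line 2 (-1.59) and tail-tip line 1 (-3.08) lay above the other 5, which ran from -7.36 to -6.19. Of the 2 oxysterol-Oct4 lines, line 1 had the highest Tyrobp level of the 9 and line 2 was not well above background. All 9 lay below MEF, with a mean difference of -5.56 (SE 2.46, 95% interval -11.02 to -0.09, adjusted p = 0.176 with limma). In single arrays Tyrobp was 105-fold lower in the spheres than in MEF and at least 82.6-fold lower in ES. In RNA from whole cultures, fewer cells of a type and less RNA per cell cannot be told apart.

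Fcer1g, the common chain of Fc receptors, had signal on every array on probe A_51_P405476. It read 2.00 in MEF, -0.27 in the spheres and -2.05 in ES. In the lines it ran from -2.99 (Bmi1-Oct4 line 1) through a median of -2.08 to 1.95 (purmorphamine-Oct4 line 2), which nearly equalled MEF. Tail-tip line 2 (0.39) and Bmi1-Oct4 line 2 (-0.35) followed. The mean of the lines minus MEF was -3.39 (SE 1.63, 95% interval -7.02 to 0.24), without passing the test (adjusted p = 0.211 with limma). The neighbouring probe A_51_P405478 ordered the lines in the same way at the top, with purmorphamine-Oct4 line 2 at 0.37 and MEF at 0.25, and gave -4.18 (SE 2.27, adjusted p = 0.274). The probes parted in the spheres. There the first read -0.27, 4.83-fold below MEF, and the second -8.96, not well above background and at least 141-fold below MEF.

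**Figure D2:**
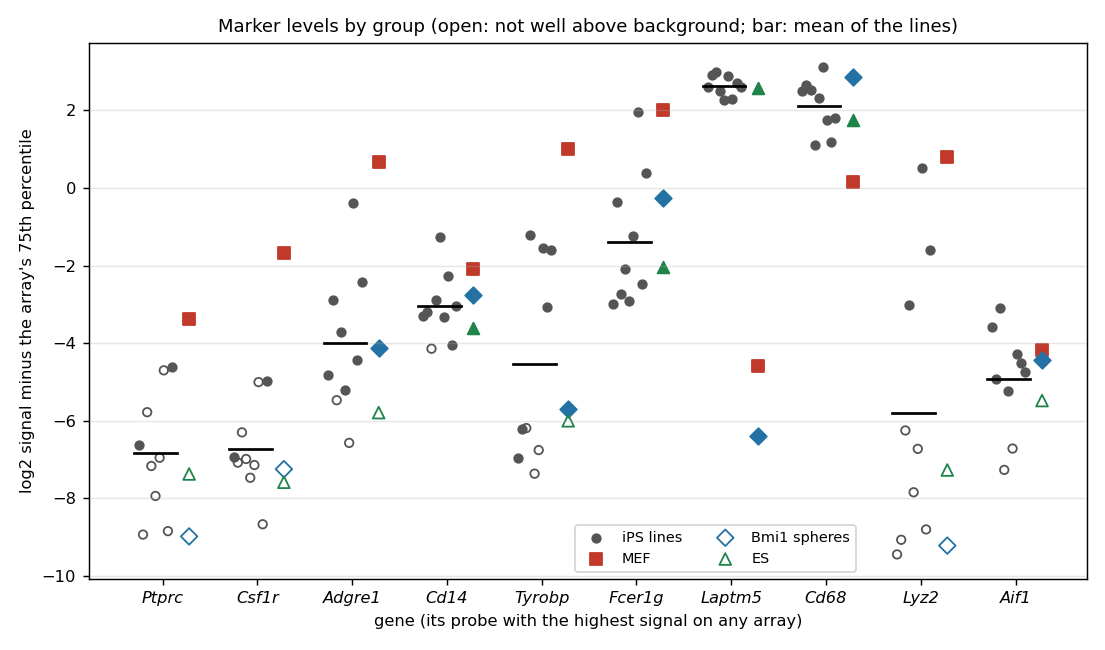
Level of each marker on its probe with the highest signal on any array (vertical axis, log2 signal minus the array's 75th percentile), for the 9 iPS lines (grey, bar at their mean), MEF (red square), Bmi1 spheres (blue diamond) and ES (green triangle). Open symbols were not well above background. MEF lies above all lines for Ptprc, Csf1r, Adgre1, Tyrobp, Fcer1g and Lyz2 and below all lines for Laptm5 and Cd68. For Ptprc, Csf1r and Lyz2 the probe was chosen through its signal in MEF.

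Laptm5 and Cd68 went the other way. Laptm5, a lysosomal membrane protein best known from blood cells, was high in every pluripotent sample. On probe A_51_P401668 it read 2.57 in ES and from 2.28 (oxysterol-Oct4 line 2) through a median of 2.60 to 2.99 (Shh-Oct4) in the lines, against -4.60 in MEF and -6.40 in the spheres. The range over the 9 lines was smaller than the gap to either. It was the one marker that passed the test: it rose by 7.24 log2 units in the lines against MEF, a 151-fold difference (SE 0.391, 95% interval 6.37 to 8.11, adjusted p = 3.05e-06 with limma, 9 of 9 lines higher). Against the spheres it was higher by 9.04 (SE 0.391, adjusted p = 3.31e-07), and against ES it differed by 0.06 (SE 0.391, 95% interval -0.80 to 0.93). The second probe, whose start lies 108 bases from that of the first on chromosome 4, gave 7.64 against MEF (SE 0.429, adjusted p = 5.03e-06). The 2 probes differed by 0.06 to 0.52 log2 units on all 12 arrays.

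Cd68, a glycoprotein of late endosomes, was well above background on every array and lowest in MEF. It read 0.16 in MEF, 1.74 in ES and 2.86 in the spheres. The lines ran from 1.10 (oxysterol-Oct4 line 1) through a median of 2.31 to 3.11 (purmorphamine-Oct4 line 1), and 9 of 9 lay above MEF. The mean difference of 1.94 (SE 0.710, 95% interval 0.37 to 3.52) did not pass over all genes (adjusted p = 0.110 with limma). In single arrays Cd68 was 6.52-fold higher in the spheres than in MEF and 2.99-fold higher in ES. Its direction was thus opposite to that of Adgre1 and Tyrobp.

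Lyz2, the lysozyme of macrophages and granulocytes, depended on the probe. Probe A_52_P238027 read 0.79 in MEF. Purmorphamine-Oct4 line 2 read 0.52, tail-tip line 2 read -1.60 and oxysterol-Oct4 line 1 read -3.02. It was not well above background on the other 8 arrays, among them the spheres (-9.22) and ES (-7.27). In single arrays it was at least 204-fold lower in the spheres and at least 70.7-fold lower in ES than in MEF. The lines minus MEF gave -6.59 (SE 3.35, 95% interval -14.01 to 0.83, adjusted p = 0.245 with limma). Probe A_51_P321150, the one of higher mean signal, was well above background on all 12 arrays and kept within 1.58 log2 units, from -4.35 in ES to -2.77 in the spheres, with -3.41 in MEF. Its difference between lines and MEF was -0.18 (SE 0.438, adjusted p = 0.809). Lyz1, a close paralogue whose RNA such probes might share, was at -1.0 in MEF and -6.59 in the spheres, while purmorphamine-Oct4 line 2 read -1.47 and tail-tip line 2 read -2.48. The 3 arrays with the highest level were thus the same for Lyz1 and for the first Lyz2 probe, and values of the 2 genes are uncertain to that extent.

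Aif1 (Iba1) was low everywhere. On probe A_51_P400543 it read -4.17 in MEF, -4.43 in the spheres and -5.48, not well above background, in ES. The lines ran from -7.27 (oxysterol-Oct4 line 1) through -4.75 to -3.10 (Shh-Oct4), on both sides of MEF, and differed from it by -0.75 (SE 1.29, 95% interval -3.62 to 2.12, adjusted p = 0.728 with limma). The second Aif1 probe was well above background on 4 arrays, with -3.44 in the spheres, -3.59 in purmorphamine-Oct4 line 2 and -5.52 in MEF.

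**Figure D3:**
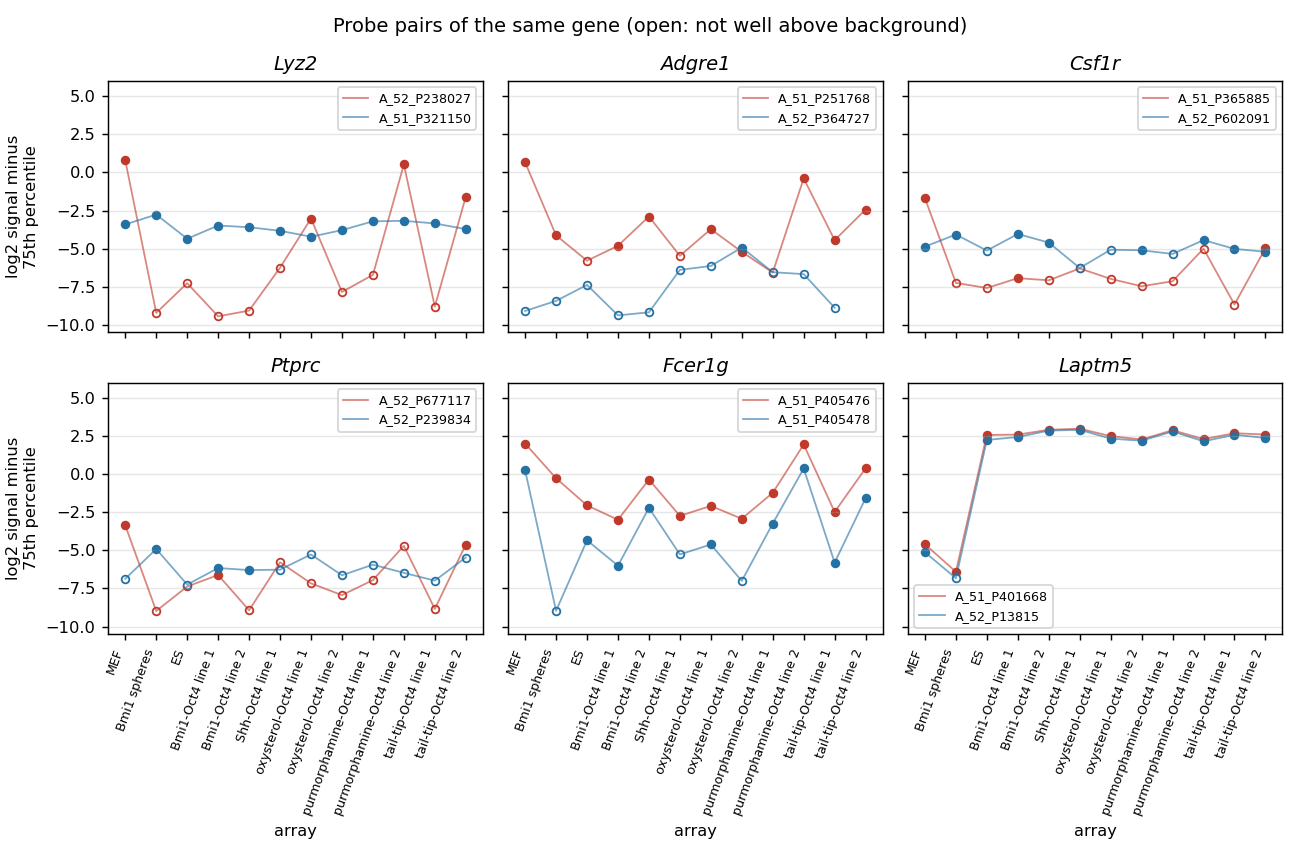
Levels of a pair of probes (red and blue) of 6 marker genes on the 12 arrays, as log2 signal minus the array's 75th percentile; open points were not well above background. The Laptm5 probes run together and the Fcer1g probes part in the spheres. MEF has the highest level of the 12 arrays on the first probe of the Lyz2, Adgre1, Csf1r and Ptprc pairs.

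Read as counts, the markers gave few calls. Against MEF, 1 of the 10 markers was called higher in the lines (Laptm5) and 0 lower, where 7.82% of the 25416 genes tested were called higher and 2.93% lower. The median difference of the 10 was -0.47, against 0.38 over all genes. Of the 10, 3 had an unadjusted p under 0.05 besides Laptm5: Adgre1 (0.0242), Cd68 (0.0204) and Tyrobp (0.0470). Reading each gene by the probe with its highest signal on any array was an alternative added after the data were seen. It called Csf1r lower as well (-5.04, adjusted p = 0.0194 with limma), with 7.72% of genes called higher and 3.1% lower. MEF itself gave the highest signal on that Csf1r probe, so the choice set the direction and the call supports nothing. Without purmorphamine-Oct4 line 2, Adgre1 was called lower (-5.11, adjusted p = 0.0414). Without that line and tail-tip line 2, both left out after their high signal was seen, Adgre1 (-5.40, adjusted p = 0.0243) and Fcer1g (-4.12, adjusted p = 0.0346) were, which supports nothing. Within the slide that held MEF and both Bmi1-Oct4 lines, Laptm5 differed by 7.35 without passing (adjusted p = 0.130), where 0 genes were called and 5490 had an unadjusted p under 0.05.

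**Figure D4:**
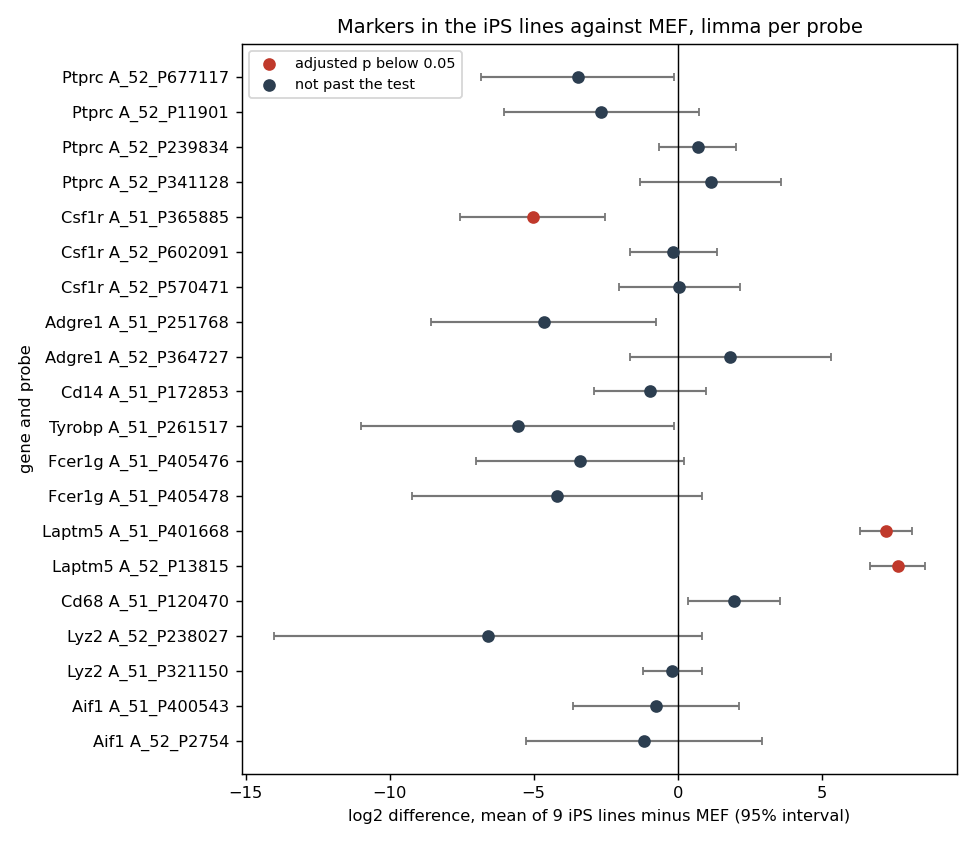
Difference between the mean of the 9 iPS lines and the MEF array for each of the 20 marker probes (horizontal axis, log2 units, bars are 95% intervals from limma per probe). Red points had an adjusted p below 0.05. Only the 2 Laptm5 probes, at 7.24 and 7.64, and 1 Csf1r probe, at -5.04, did.

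Against ES, 0 of the 10 markers were called (limma, adjusted p = 1.00 for each, 0.00788% of genes called higher and 0.0158% lower, and 0 markers had an unadjusted p under 0.05). The differences between lines and ES ran from 0.06 to 1.80 log2 units, all 10 above 0. Against the spheres, Laptm5 was called higher and 0 markers were called lower, where 5.79% of genes were called higher and 2.89% lower. The other 9 lay between -1.26 (Ptprc) and 1.16 (Tyrobp), with a lowest adjusted p of 0.243 (limma). Probe by probe, the 18 probes of those 9 genes ran from -3.26 (Aif1) to 5.04 (Fcer1g) against the spheres (lowest adjusted p = 0.239 with limma) and from -1.91 (Ptprc) to 1.80 (Adgre1) against ES, where 0 passed. Among the 5 iPS groups 0 markers differed (limma F-test over 8 groups, lowest adjusted p = 0.697, lowest unadjusted p = 0.111), and 0% of genes did. Over all genes 2240 had an unadjusted p under 0.05 in that test, which rests on 4 residual degrees of freedom. Over the 20 single probes the lowest adjusted p of the F-test was 0.314.

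Comparisons of 1 array with 1 were counted at 2-fold or more with the higher signal well above background, without a test. All of them share arrays. MEF and ES lay on the same slide and the spheres on another, so slide and sample cannot be told apart in comparisons with the spheres. In the spheres against MEF, 2 markers were higher (Cd68 and, on its dim probe, Ptprc) and 4 lower (Tyrobp, Adgre1, Fcer1g and Laptm5), where 32.4% of genes were higher and 18% lower. With the probe of highest signal on any array, 1 was higher and 7 lower, Csf1r, Lyz2 and Ptprc among them, where 32.4% of genes were higher and 18.4% lower. MEF itself gave the highest signal on the probes chosen for Csf1r, Lyz2 and Ptprc. This choice thus fixed their direction against MEF in advance. In ES against MEF, 2 were higher (Laptm5 and Cd68) and 5 lower (Tyrobp, Adgre1, Fcer1g, Cd14 and Aif1), where 25.6% and 21.5% of genes were. The probe of highest signal on any array gave 8 lower, with 25.6% of genes higher and 22.1% lower. The same limit holds there for Csf1r, Lyz2 and Ptprc. In the spheres against ES, 7 were higher and Laptm5 was 504-fold lower, where 28.1% and 21.2% of genes were. With each dim signal raised to its array floor 5 were higher: Ptprc was at least 1.36-fold and Aif1 at least 1.90-fold higher, which does not reach 2-fold. For that comparison the probe of highest signal gave 4 higher, with 28.4% of genes higher and 21.5% lower. With limma and the spread of the lines, Laptm5 was the single call in ES against MEF and in the spheres against ES, and the spheres against MEF gave 0 calls.

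The other lists of blood genes were chosen with earlier results of these data known, and their changes describe these samples. Each count below stands beside the shares of all genes: 7.82% called higher and 2.93% lower in the lines against MEF, 32.4% and 18% past 2-fold in the spheres against MEF, and 25.6% and 21.5% in ES against MEF. Of 11 measured macrophage genes, 1 was called lower in the lines than in MEF and 0 higher: the scavenger receptor Marco, at 3.52 in MEF, from -1.72 to 1.39 in the lines and at 0.93 in the spheres (-4.08 against MEF, SE 1.00, adjusted p = 0.0282 with limma). In the spheres against MEF 5 of the 11 were lower and 4 higher, and in ES against MEF 5 were lower and 3 higher. Those higher in the spheres were Gpnmb, Siglec1 (3.12-fold) and the complement genes C1qa (2.24-fold) and C1qb (2.21-fold), and those higher in ES were Siglec1 (14.8-fold), the mannose receptor Mrc1 (6.42-fold) and C1qa (4.11-fold), named after their values were seen. Msr1, a second scavenger receptor, was at least 104-fold lower in the spheres than in MEF, Ms4a7 61.2-fold and the lysosomal protease Ctss 58.8-fold. In the lines Msr1 did not pass (-5.74, SE 2.52), with purmorphamine-Oct4 line 2 (-0.12) beside MEF (-0.19). Gpnmb, a glycoprotein of macrophages and of other cells, was at least 41.5-fold lower in ES than in MEF. Its level in the spheres was 1.70, above its 0.02 in MEF. The median of the list, lines minus MEF, was 0.07, against 0.38 over all genes.

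Regulators and signalling partners of macrophages were mixed. Of 8 measured myeloid transcription factors, 0 were called in the lines against MEF. Spi1 (PU.1), the factor on which macrophages depend, was well above background on 1 of 12 arrays, MEF, at -6.33. Cebpa was 7.58-fold lower in the spheres than in MEF. Of 13 measured myeloid receptors only Trem2 was called (1.86, adjusted p = 0.0494, higher in the lines), and in the spheres against MEF 5 were higher and 4 lower, among them the integrin Itgax, 30.1-fold lower. Of 10 genes of ITAM signalling, 4 were called higher in the lines and 0 lower, where 7.82% and 2.93% of all genes were. Inpp5d, a lipid phosphatase, rose at least 115-fold, and the Src-family kinase Fgr rose at least 25-fold. Of 10 genes of the Cd14 pathway 0 were called, although in ES against MEF 7 were lower and 1 higher, where 21.5% and 25.6% of all genes were, among them Tlr4, at least 33.9-fold lower, and its partner Ly96, at least 43.0-fold lower.

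Of 7 growth factors 0 were called in the lines against MEF. Csf1, the ligand of Csf1r, read 2.09 in MEF and 1.55 in the spheres and was 69.8-fold lower in ES, and Il34, the second ligand, was 40.1-fold higher in the spheres than in MEF. Cyba, a subunit of the phagocyte oxidase, was 89.3-fold lower in the spheres than in MEF. Of 12 lysosomal genes Cd63 fell by 1.83 (adjusted p = 0.0136), and the list median of -1.23 lay below that of all genes. In the spheres against MEF 1 lysosomal gene was higher (Psap, 2.31-fold) and 1 lower (Lamp1, 2.05-fold). Of 13 pan-leukocyte genes, 2 were called higher, Cd37 by the larger difference (3.41), and 2 lower, Arhgdib (-4.77, adjusted p = 0.0332) and Cd53 (-3.06, adjusted p = 0.0295). Of 7 MHC class II genes 1 was called, Ciita, higher by 3.95 (adjusted p = 0.000959).

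Markers of other blood cells were examined in the same samples. Among 8 mast cell and basophil genes, the protease Mcpt8 read 4.13 in MEF and was above background in only 1 line, purmorphamine-Oct4 line 2 at -1.94. It was called lower in the lines (adjusted p = 0.00887) and was at least 2069-fold lower in the spheres and at least 716-fold lower in ES. In the same list Cma1 was called higher in the lines (3.48), and Tpsab1 was at least 283-fold higher in the spheres than in MEF. Among 5 megakaryocyte genes the platelet chemokine Ppbp read 3.76 in MEF, -3.97 in the spheres and from -8.70 to -0.59 in the lines (-8.57, adjusted p = 0.0624), and 0 were called. Of 6 NK cell genes Klrb1c and Klrd1 were called lower, at least 15.2-fold and at least 3.14-fold. Of 11 T cell genes 1 was called, Zap70, higher in the lines (4.53), and of 8 B cell genes 1, Cd79b, higher (5.63). Of 9 neutrophil genes 0 were called.

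These lists were also counted between single arrays. Of 10 erythroid genes 6 were at least 2-fold higher in the spheres than in MEF and 1 lower, led by the haemoglobin gene Hba-a1 at 3.37 against -3.68, a 132-fold difference. At the bounds, 5 erythroid genes were higher. In ES against MEF 5 erythroid genes were higher and 0 lower, and in the spheres against ES 2 were higher and 3 lower. The summed erythroid level was lowest in MEF (0.43), with 1.09 in ES, 1.17 to 3.22 in the lines and 11.6 in the spheres. Most of the sum in the spheres came from Hba-a1 alone. Slc4a1 of this list was called higher in the lines against MEF (3.78, adjusted p = 0.0193 with limma). Of 9 neutrophil genes 6 were higher in the spheres than in MEF and 0 lower, led by S100a8 (20.6-fold) and Ctsg (9.16-fold), and 4 were with dim signals at their bounds, since Elane was at least 1.72-fold and S100a9 at least 1.51-fold higher. Of 11 T cell genes 7 were higher and 0 lower, led by Cd3d (at least 53.1-fold), and at the bounds 6 were higher. Of 8 blood stem and progenitor genes 3 were higher and 0 lower, with Cd34 4.09-fold higher. Of 8 B cell genes 5 were higher and of 6 NK cell genes 3 higher and 1 lower. In ES against MEF 5 T cell genes were higher and 2 lower, and 0 neutrophil genes were higher and 2 lower. Of progenitor genes 3 were higher and 3 lower there, of B cell genes 3 and 1, and of NK cell genes 2 and 3. The counts against MEF stand beside 32.4% of all genes higher in the spheres and 25.6% in ES. In the spheres against ES 28.1% of all genes were higher and 21.2% lower.

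Fibroblast genes were read on the same arrays. The summed level of 9 fibroblast genes, each as signal over the array's 75th percentile, was 116 in MEF, 45.4 in the spheres and 6.16 in ES. In the lines it ran from 4.10 (tail-tip line 1) to 39.8, and the 2 highest were tail-tip line 2 (39.8) and purmorphamine-Oct4 line 2 (28.2), the lines with the highest Fcer1g, followed by oxysterol-Oct4 line 1 (11.8). The summed level of the 11 macrophage genes was 17.7 in MEF, 9.18 in the spheres and 2.99 in ES. In the lines it ran from 2.51 to 10.1, highest in purmorphamine-Oct4 line 2. In MEF that sum was led by a single gene, Marco, at 3.52 in MEF, 0.93 in the spheres and -1.20 in ES. The gap in Marco signal between MEF and the spheres was larger than the gap between their sums, so their order turned on this gene. The same held for MEF and purmorphamine-Oct4 line 2. Of the fibroblast list Postn (at least 82.6-fold) and Thy1 (-4.61) were called lower in the lines, and 8 of 9 were lower in ES and 5 of 9 in the spheres. Of the defining markers of macrophages, Cd163 and C1qc were not well above background on any of the 12 arrays, C1qa was on 9 of the 12, and C1qb was on all 12, at 0.69 in MEF, 1.84 in the spheres and 0.64 in ES. The part of fibroblast RNA and of array sensitivity in the marker levels was not tested. The summed level of 6 pluripotency genes was 118 to 174 in the lines, lowest in purmorphamine-Oct4 line 2 (118) and oxysterol-Oct4 line 1 (119). Next came Bmi1-Oct4 line 1 (125), whose fibroblast sum was 4.19, and tail-tip line 2 (130). All 6 pluripotency genes were called higher in the lines against MEF, Zfp42 at least 1613-fold.

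The remaining lists were counted in the same way. Of 7 endothelial genes Tek was called higher in the lines (at least 39.4-fold). In the spheres against MEF 1 endothelial gene was higher and 2 lower, Flt1 (1105-fold) among them, where 32.4% and 18% of all genes were. Of 8 neural stem genes Pax6 (at least 12.1-fold) and Slc1a3 (2.53) were called higher and Gfap lower (-5.76), and in the spheres against MEF 2 were higher and 3 lower, among them Prom1, at least 104-fold lower. Of the blood stem and progenitor genes Myb (4.34) and Kit (at least 17.5-fold) were called higher in the lines. Over all 23 lists 0 genes were called in the lines against ES and 0 among the iPS groups. Against the spheres 22 of 194 list entries were called higher in the lines and 17 lower, where 5.79% and 2.89% of all genes were. In the spheres against ES 83 of 194 were higher and 47 lower, where 28.1% and 21.2% of all genes were.

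**Figure D5:**
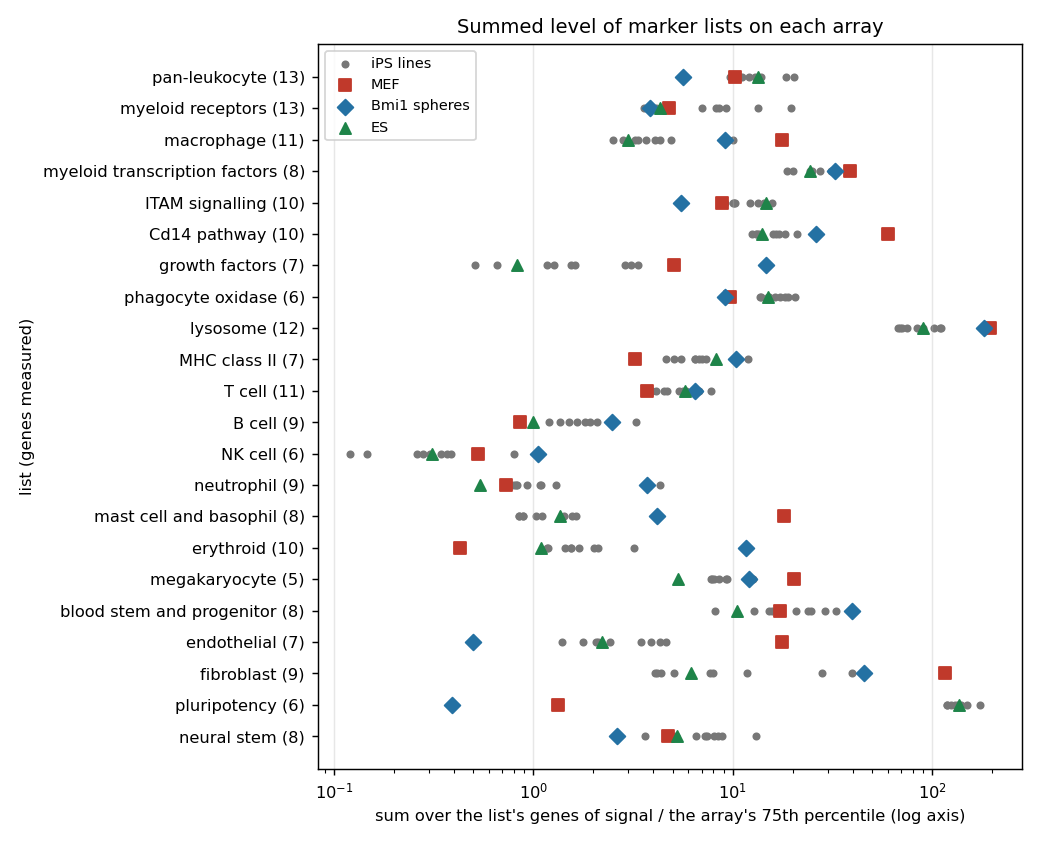
Summed level of 22 marker lists (rows, number of genes measured in brackets) on each array, as the sum over genes of signal divided by the array's 75th percentile (log axis). MEF (red squares) lies above all 9 lines (grey) for lists that include the macrophage, Cd14 pathway, mast cell, megakaryocyte, endothelial and fibroblast lists. The spheres (blue diamonds) lie above all other arrays for the erythroid, growth factor, NK cell and blood stem and progenitor lists. A sum is led by its brightest genes. In MEF, Marco makes up most of the macrophage sum, Mcpt8 of the mast cell sum and Ppbp of the megakaryocyte sum. Without these genes MEF would not lie above all lines for those lists. Irak1 and Irak4 make up most of the Cd14 pathway sum in MEF. Hba-a1 makes up most of the erythroid sum in the spheres.

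Genes whose levels followed those of a marker most closely were found by the root mean square difference of mean-centred log2 levels over the 12 arrays, among 16228 genes with a symbol and signal on at least 3 arrays. For Laptm5 they were Lrrc34 (0.32), Tfap2c (0.37) and Plekhd1 (0.40), for a marker that spanned 9.39 log2 units. For Tyrobp, spanning 8.38, they were Serpina3f (0.99), Pkp1 (1.09) and Maob (1.24), and for Adgre1, spanning 7.23, Cyp4v3 (0.80), Bcl2a1b (1.01) and Unc5c (1.03). For Fcer1g, spanning 4.99, they were Chst14 (0.73), Mgp (0.76) and Map3k8 (0.80). Those of Cd68 were C3 (0.38), Atad3a (0.40) and Gulo (0.41). Markers with a small span had close neighbours of many kinds: Adam3, Ppp1r1c and Olfr2 for Ptprc (0.22 to 0.30), Olfr1126, Uhrf1bp1l and Wipf2 for Csf1r (0.24 to 0.36), Nt5c3b, Zfp426 and Vgll2 for Aif1 (0.64 to 0.66) and Klhl18, Fam234a and Ptprn for Cd14 (0.41 to 0.44). Lyz2 on its even probe spanned under 2 log2 units and was not searched. None of these neighbours was a marker of the lists used here.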

How the data were processed

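One array was hybridised per sample. The deposited processed signals are intensities made by Agilent Feature Extraction 9.5.3.1, background-subtracted and detrended within each array, per the file headers, and they were not scaled between arrays. Flags for background, saturation and outliers come from the same files. Outlier spots were left out, spots of a probe were averaged, and each value was taken as log2 minus the 75th percentile of its array. Of 41174 gene probes, 23075 were named by accession, 6582 by symbol, 3077 by synonym and 8440 kept the deposited name. A gene was read by its probe of highest mean signal, where that probe rose clear of background on 1 or more arrays. Lines were compared with single arrays in limma 3.58.1 (R 4.3.3; 4 classes, 8 residual degrees of freedom), and iPS groups by an F-test over 8 groups. P-values were adjusted by Benjamini-Hochberg over all genes at 0.05, and the scripts were tested on simulated data. Single arrays were compared at 2-fold, without a test. The text names all members, up to 3 genes of each other list by size of change or level, Lyz1, and the 3 genes most like each member. Members and lists were chosen with earlier results of these data known. Alternatives covered background correction, scaling, filters, the probe of a gene, the slide, the line number as a block and each line left out. Some genes of the other lists are not reported here.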

Additional observations from a re-analysis of the deposited data

How the results depend on the processing

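Of the counts of markers, 196 values under the alternatives stayed within 1.5 times the main count and 21 did not, and the cause was not tested. For the lines against MEF, the count higher fell from 1 to 0 within the slide of MEF, and the count lower rose from 0 to 1 with the probe of highest signal on any array and to 2 without purmorphamine-Oct4 line 2 and tail-tip line 2. Leaving out 1 line at a time gave 0 to 1 lower. For the spheres against ES, 7 higher became 3 at 3-fold, 0 with limma and the pooled spread, 3 with the mean of all probes, 2 with normexp and 4 with the probe of highest signal, and 1 lower became 2 with the mean of all probes. For the spheres against MEF, 2 higher became 0 with limma and 1 with the mean of all probes, with normexp and with the probe of highest signal, and 4 lower became 0 with limma and 7 with the probe of highest signal. For ES against MEF, 2 higher became 1 at 3-fold and with limma, and 5 lower became 3 at 3-fold, 0 with limma and 8 with the probe of highest signal. The lines minus MEF turned for Aif1 to 0.18 when all signals were raised to the highest floor. For Csf1r they turned to 0.088 with normexp, 0.016 with that floor, 0.55 with slide as a fixed block and within the slide, 0.014 with the replicate block and 0.014 without the Shh-Oct4 line, and ran from -0.26 to 0.014 when 1 line at a time was left out. For Ptprc they turned to -1.07 with the mean of all probes, -3.47 with the probe of highest signal and -0.15 with quantile normalisation, and the spheres minus MEF to -0.60 and -5.61 with the first 2 of these. The line numbers did not pair the samples (correlations -0.16 to 0.24), and with the replicate block 1 marker was called higher and 0 lower than MEF. The share of calls that were higher, over all genes in the lines against MEF, was 72.8%, and 62.7% with quantile normalisation, 59.7% with normexp and 54.4% with the highest floor. The median over all genes, 0.38, moved to 0.13, 0.27 and 0.05. The probe of highest signal, the lines left out together and the highest floor were chosen after seeing the data. The probe of highest signal favours counts lower than MEF, since MEF set that choice for Ptprc, Csf1r and Lyz2. The F-test with slide as a fixed block could not be fitted and was not run. Signals near background limit Ptprc, Aif1 and most Csf1r probes.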
